A study of Mus musculus with 6 samples.

Results

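The genes described here are 10 components of bone morphogenetic protein (BMP) and growth differentiation factor (GDF) signalling: the ligands Bmp2, Bmp4, Bmp7, Gdf5 and Gdf6, the secreted antagonists Nog, Chrd and Grem1, and the receptors Bmpr1a and Bmpr1b. They were taken by name from the 22367 protein-coding genes of the annotation, and each was examined over a window made of its gene body and 100 kb on either side. Binding was read from chromatin immunoprecipitation and sequencing (ChIP-seq) in 6 libraries, with 1 library per condition. For Bapx1, vertebral columns of E12.5 mouse embryos (strain CD1) carrying an S-peptide tag at the N-terminus of Bapx1 were compared with those of wildtype embryos, both precipitated with the same S-peptide antibody and each pooled from many embryos. For Sox9, an antibody against the endogenous protein was set against IgG at E12.5, and the sample labels give limb as well as vertebral column as the tissue. The mouse fibroblast line NIH3T3 was used for V5-tagged Bapx1 expressed from a plasmid and for a V5 control, for which the labels name empty vector in one place and wild type cells in another. The tag is expressed from the Bapx1 locus in the embryo, whereas the V5-Bapx1 of the NIH3T3 cells is overexpressed in a cell type that is not cartilage.

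BMPs and GDFs are secreted dimers that bring together type I and type II receptor kinases, and the type I receptors, such as Bmpr1a and Bmpr1b, phosphorylate the Smad proteins that carry the signal to the nucleus. Noggin (Nog), chordin (Chrd) and gremlin (Grem1) bind the ligands outside the cell and keep them from their receptors. In the axial skeleton, antagonists shield the early sclerotome from BMPs, and BMP signals later drive the cells of the sclerotome into cartilage. Bapx1 (Nkx3-2) is a homeodomain protein of the sclerotome and Sox9 is the transcription factor that cartilage formation depends on. Chromatin immunoprecipitation shows where a protein was precipitated and not how strongly a gene was transcribed, and a peak is tied to a gene here by distance only.

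The libraries held between 9124697 (V5-Bapx1, NIH3T3) and 24855032 (Bapx1, embryo) uniquely mapped tags. The peaks were those that the authors called with MACS, 2815 for Bapx1 in the embryo, 23205 in NIH3T3 cells and 3722 for Sox9 on the chromosomes used. The authors' false discovery rate (FDR) had a median of 61.1% in the embryo Bapx1 list, 0.58% in the NIH3T3 list and 39.1% in the Sox9 list, so a single embryo peak is much less certain than a single NIH3T3 peak. The positions of the Sox9 and IgG tags did not lie on mm9, the assembly of the other files. Their displacement was therefore measured around each gene from the tags themselves and was clear at all 10, though only narrowly at Grem1. It ran from 0 at Gdf6 through -39300 bp at Grem1 and 274400 bp at Bmpr1b to -1984100 bp at Bmpr1a. Sox9 peaks are given by their distance from a gene after this correction. Since each condition had 1 library, there is no replicate spread to compare with, and no test between conditions was possible. Intervals are exact binomial 95% intervals and cover counting error only. At the summits of a list, the ratio of the libraries it was called from is raised by that choice. Such an interval above 1 is therefore no separate support for a peak.

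The sequences below are shown because they hold the short motif TGAGTG or TAAGTG, which the study names for Bapx1. Each is the 101 bases around the summit of the strongest peak of a gene that holds the motif within 50 bp. They are written 5′ to 3′ on the plus strand of mm9, with every match in capitals, where CACTCA and CACTTA are the motif on the minus strand. The first was the only embryo summit of these genes with the motif, and the others are from NIH3T3 cells.
Chrd, embryo, chr16:20803483-20803583: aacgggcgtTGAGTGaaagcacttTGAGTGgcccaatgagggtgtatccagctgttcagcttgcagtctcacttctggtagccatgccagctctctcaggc
Bmp2, NIH3T3, chr2:133390876-133390976: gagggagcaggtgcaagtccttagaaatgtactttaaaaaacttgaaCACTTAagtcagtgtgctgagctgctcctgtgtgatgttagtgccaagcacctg
Bmp4, NIH3T3, chr14:47076574-47076674: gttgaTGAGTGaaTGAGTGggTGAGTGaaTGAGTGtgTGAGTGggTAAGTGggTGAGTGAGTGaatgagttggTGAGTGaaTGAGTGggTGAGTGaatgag
Gdf5, NIH3T3, chr2:155706663-155706763: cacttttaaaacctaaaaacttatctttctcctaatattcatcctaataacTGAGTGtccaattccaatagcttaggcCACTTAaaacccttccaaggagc
Chrd, NIH3T3, chr16:20702049-20702149: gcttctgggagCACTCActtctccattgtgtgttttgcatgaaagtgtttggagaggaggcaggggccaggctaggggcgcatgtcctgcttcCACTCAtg
Grem1, NIH3T3, chr2:113618843-113618943: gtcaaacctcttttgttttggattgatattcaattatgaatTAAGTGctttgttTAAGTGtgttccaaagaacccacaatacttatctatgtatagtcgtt
Bmpr1a, NIH3T3, chr14:35321490-35321590: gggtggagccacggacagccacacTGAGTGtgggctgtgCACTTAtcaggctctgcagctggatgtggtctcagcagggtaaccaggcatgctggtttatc
Bmpr1b, NIH3T3, chr3:141545226-141545326: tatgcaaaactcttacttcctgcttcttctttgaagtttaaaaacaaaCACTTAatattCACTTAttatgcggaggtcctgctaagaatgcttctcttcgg
The Bmp4 sequence stands apart, since its 11 matches, all on one strand, form a tandem repeat. Only 11 of the 23205 NIH3T3 summits held 11 or more matches. In the other 6 NIH3T3 sequences the motif occurred once or as a pair, and at Bmp2 and Bmpr1b the centre of the nearest match lay 0.5 bp from the summit.

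Embryo Bapx1 peaks lay in the windows of 5 of the 10 genes, Gdf5, Nog, Chrd, Grem1 and Bmpr1b, with 6 peaks in all. Among all protein-coding genes 25.1% had an embryo peak in a window built the same way. The 10 genes were chosen with earlier results of these data known, so shares of all genes are no independent background for them. V5-Bapx1 peaks from NIH3T3 cells lay at 8 of the 10 genes, with 24 peaks in all, against 81% of all genes, so the share at these genes was close to that of any gene. Sox9 peaks lay at 6 of the 10 genes, with 15 peaks in all, where 29.9% of the 19852 genes with a clear displacement had one. Gdf5, Chrd and Bmpr1b had peaks of all 3 kinds, and Gdf6 had none of any kind. The shares of all genes with all 3 kinds or with none were not counted, so there is no background for these. Over the 2.56 Mb of the windows, the peak counts made 2.34 embryo Bapx1 peaks per Mb against 1.06 in the genome, 9.37 NIH3T3 peaks against 8.74 and 5.86 Sox9 peaks against 1.402. The genome values include sequence far from genes, so they are not a like background for windows around genes. Bmpr1b, with the longest window at 532 kb, held 2 of the embryo peaks, 8 of the NIH3T3 peaks and 8 of the Sox9 peaks. None of the 6 embryo peaks overlapped a NIH3T3 peak, where 6.39% of the whole embryo list did. No embryo or Sox9 peak and 1 NIH3T3 peak came within 5 kb of the transcript start of one of the genes. Among all genes 2.68% had an embryo peak that close, 1.91% a Sox9 peak and 16.9% a NIH3T3 peak.

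**Figure D1:**
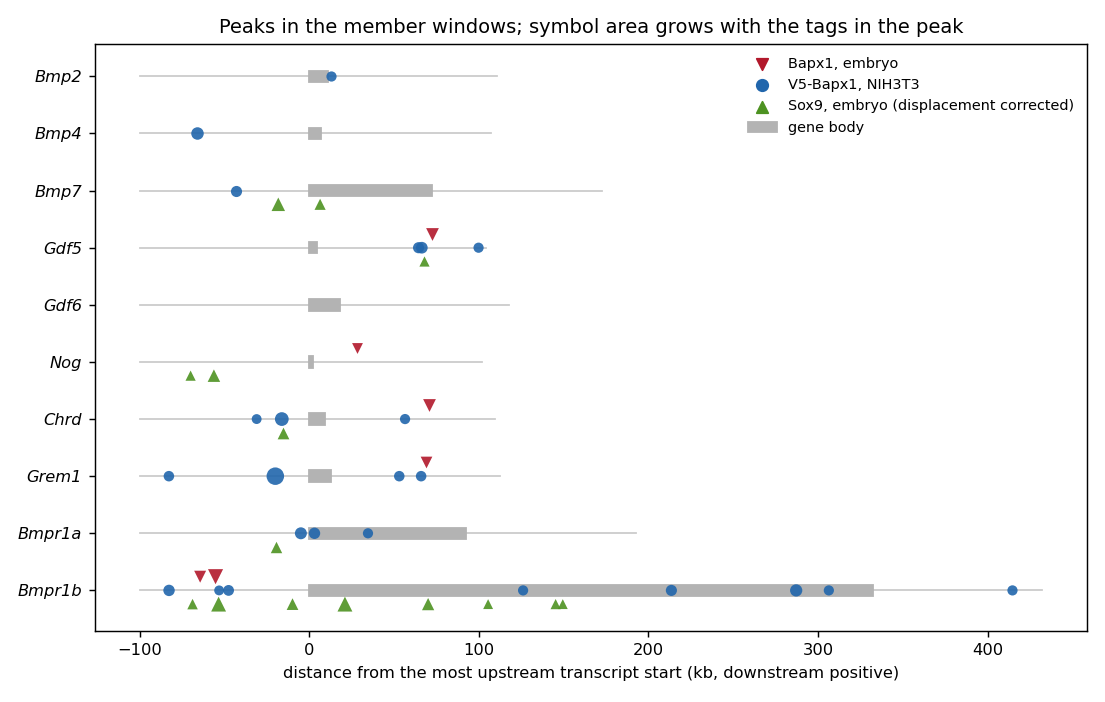
Peaks in the window of each gene, by distance in kb from its most upstream transcript start (x axis). Grey boxes are gene bodies, grey lines the windows, red triangles embryo Bapx1 peaks, blue circles NIH3T3 peaks and green triangles Sox9 peaks after correcting the displacement, with symbol area growing with the tags in the peak. Embryo Bapx1 peaks stand at 5 genes, always at least 28.03 kb from the start, and Bmpr1b carries 18 of the 45 peaks.

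The embryo count changed with the rule. With flanks of 50 kb 1 of the 6 embryo peaks was left, at Nog, and with flanks of 200 kb 7 were counted. At a p of at most 1e-10 none (0) was left, and 3 peaks at 2 genes were left when the nearest transcript start had to be one of the 10 genes. The shares of all genes under these other rules were not counted, so the losses have no background. The smallest p of the 6, at Gdf5, ranked 966 of 2815 in the embryo list. The embryo peak deepest in the flank was 67.8 kb from its gene body, at Gdf5, and the nearest outside the windows was 198 kb from Chrd. The NIH3T3 list had peaks on both sides of the edge, at 95.4 kb and 102 kb from Gdf5, at 107 kb from Gdf6 and at 114 kb from Nog.

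Among the ligands, Gdf5, a signal of the developing joints, was the only one with an embryo Bapx1 peak. It lay 72.2 kb downstream of the Gdf5 start at chr2:155698767-155699061, in an intron of the neighbouring gene Uqcc, and held 19 tags by the authors' count. Within 200 bp of the summit the Bapx1 library had 26 tags and the wildtype library 4, a scaled ratio of 5.41 (1.88 to 21.3). The NIH3T3 libraries had 1 tag with V5-Bapx1 and 2 tags in the control at this place, so nothing was detectable there in fibroblasts. Gdf5 also had 3 NIH3T3 peaks, of which the one with the smallest p, at chr2:155704581-155705031, lay in the same intron 66.3 kb downstream, 5.86 kb from the embryo summit. It had 15 V5-Bapx1 tags against 3 in the control, and 6 tags in each embryo library.

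Bmp2, a ligand that drives cartilage and bone differentiation, had 1 NIH3T3 peak, at chr2:133390812-133391115, 13.0 kb downstream of its start and 2.31 kb beyond the end of the gene. The start nearest to its summit was that of AL831753.1, 482 bp away. This summit had 10 V5-Bapx1 tags and 3 control tags, and the embryo libraries had 7 and 3. Bmp4, a close relative of Bmp2, had 1 NIH3T3 peak 66.3 kb upstream at chr14:47076354-47076915, the tandem repeat shown above. There the V5-Bapx1 library had 15 tags, its control 4, the embryo Bapx1 library 13 and the wildtype library 8, a ratio of 5.25 (1.67 to 21.7) in NIH3T3 cells and of 1.35 (0.520 to 3.77) in the embryo. The 4 control tags were as many as at any NIH3T3 summit of these genes. The part of the repeat in the peak was not tested.

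Bmp7, a ligand expressed in many embryonic epithelia and in condensing mesenchyme, had no embryo Bapx1 peak closer than 388 kb. Its NIH3T3 peak, at chr2:172808783-172809160, lay 43.2 kb upstream in an intron of Spo11, with 12 V5-Bapx1 tags, 1 control tag, and 7 and 5 tags in the embryo libraries. The ligand with the emptiest window was Gdf6, which acts beside Gdf5 in joints. Its nearest peaks were 963 kb (embryo Bapx1), 125 kb (NIH3T3) and 411 kb (Sox9) from the start. In the embryo its window held 2266 Bapx1 and 1924 wildtype tags, a ratio of 0.981 (0.923 to 1.04), and its 10.4 Bapx1 tags per kb were the fewest of the 10 windows, which ranged up to 14.6. In NIH3T3 cells its window held 845 control tags, 0.730 (0.673 to 0.792) of the embryo control after scaling, the lowest of the 10 windows. Across the windows this ratio of the controls reached 1.07, and whether either coverage bears on the peaks was not tested.

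All 3 antagonists had an embryo Bapx1 peak, more than 28 kb from their starts in each case. Such a window held one at 25.1% of all genes and at 6 of 14 further antagonists. The peak of Nog lay 28.03 kb downstream at chr11:89135710-89135915, between genes, and Nog was the gene with the nearest start. It was also the weakest of the 6, with 12 tags by the authors' count. Around its summit the Bapx1 library had 22 tags and the wildtype library 5, a ratio of 3.67 (1.35 to 12.4), while V5-Bapx1 and its control had 4 and 6. Nog had no NIH3T3 peak within its window.

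The Chrd peak lay 70.3 kb downstream at chr16:20803395-20803624, between genes and 19180 bp from the nearest start, that of Gm8017. The summit had 19 Bapx1 and 8 wildtype tags. Its ratio of 1.98 (0.827 to 5.22) was the lowest of the 6 and the only one whose interval included 1. By the authors' fold the peak stood at 10.1, where the 6 peaks ran from 5.77 to 10.75. The motif occurred as a pair in this sequence, 23.5 bp from the summit at the nearest. In NIH3T3 cells the same place had 7 V5-Bapx1 tags and 3 control tags, a ratio of 3.26 (0.745 to 19.6), which at this depth could not be told from 1. The NIH3T3 peak of Chrd with the smallest p, at chr16:20716700-20717517, lay 16.3 kb upstream in an exon of the chloride channel gene Clcn2, 699 bp from a Clcn2 start, with 10 V5-Bapx1 tags against 1.

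Grem1, an antagonist best known from limb patterning, had the strongest NIH3T3 peak of the 10 genes. It lay at chr2:113618670-113619135, 20.1 kb upstream of the Grem1 start in an intron of Scg5, and ranked 190 of 23205 by p. The V5-Bapx1 library had 41 tags at the summit and its control 2, a ratio of 28.7 (7.45 to 245). MACS put its fold enrichment at 62.7. The embryo libraries had 6 Bapx1 and 5 wildtype tags at this summit, a scaled ratio of 0.9996 (0.254 to 4.14), so no excess was detectable in the embryo at this depth. The embryo peak of Grem1 lay on the other side of the gene, 68.6 kb downstream at chr2:113530046-113530266. It was in an intron of the neighbouring gene Fmn1, and the nearest start was one of Fmn1, 1912 bp away. Introns of Fmn1 are known to hold limb enhancers of Grem1, and whether this place is one was not tested. The peak had the largest embryo ratio of the 6, 14.99 (2.37 to 625), from 18 Bapx1 tags and 1 wildtype tag. The authors' fold for it was 8.62, where the 6 peaks ran from 5.77 to 10.75. V5-Bapx1 and its control had 7 and 3 tags there, and a NIH3T3 peak stood 2.70 kb away in the same gene.

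**Figure D2:**
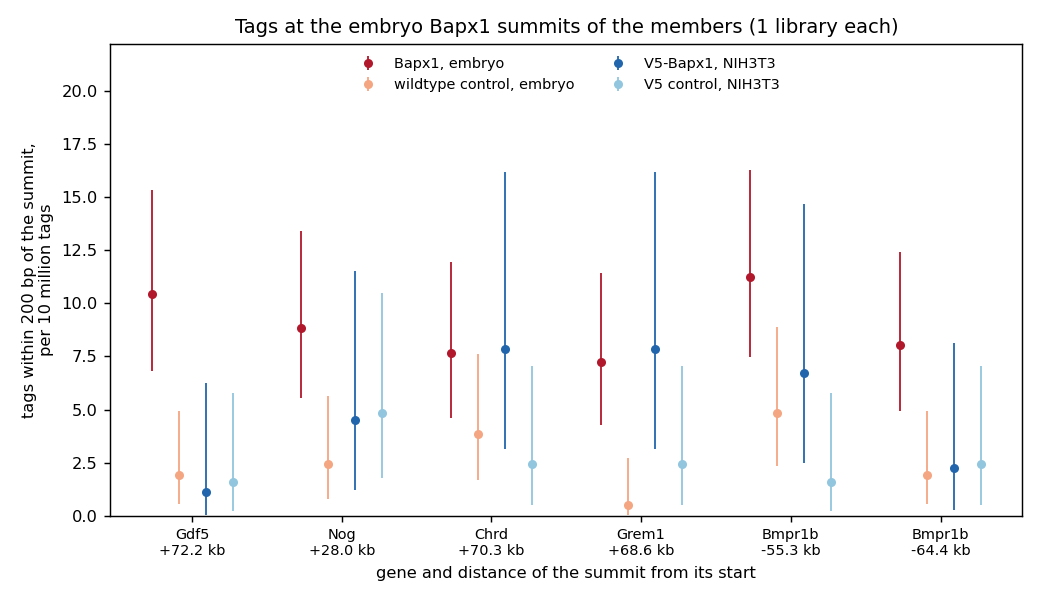
Tags within 200 bp of the 6 embryo Bapx1 summits, per 10000000 tags of each library (y axis), for the Bapx1 and wildtype libraries of the embryo and the V5-Bapx1 and V5 libraries of NIH3T3 cells. Points are single libraries and bars exact Poisson 95% intervals of the tag counts. The embryo Bapx1 points, from 18 to 28 tags, lie above the wildtype points, from 1 to 10 tags, because the peaks were chosen that way, and the NIH3T3 intervals overlap at every summit.

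Of the receptors, Bmpr1a, which is expressed widely, had no embryo Bapx1 peak closer than 696 kb to its gene body. It had 3 NIH3T3 peaks near its start, 5.01 kb upstream, 3.02 kb downstream and 34.6 kb downstream in its introns. The first of these, at chr14:35321314-35321847, had the smallest p, with 13 V5-Bapx1 tags and 3 control tags. The embryo libraries had 7 Bapx1 and 12 wildtype tags at the same summit, an order opposite to that in NIH3T3 cells, with a ratio of 0.486 (0.162 to 1.34).

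Bmpr1b, the receptor of cartilage condensations through which Gdf5 signals, had the most peaks, in the longest window. Its transcripts begin at several places over its gene body of 332290 bp, and the distances of its peaks are given from the most upstream start. The 2 embryo Bapx1 peaks lay 55.3 kb and 64.4 kb upstream, at chr3:141887465-141887852 and chr3:141896637-141896886, between genes, with Bmpr1b as the gene with the nearest start. The nearer summit had 28 Bapx1 and 10 wildtype tags, a ratio of 2.33 (1.10 to 5.38). The farther had 20 and 4 tags, a ratio of 4.16 (1.395 to 16.8). V5-Bapx1 and its control had 6 and 2 tags at the nearer and 2 and 3 tags at the farther summit.

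The NIH3T3 peak of Bmpr1b with the smallest p, at chr3:141545123-141545390, lay in an intron 287 kb downstream of the most upstream start. With 17 V5-Bapx1 tags and 1 control tag its ratio was 23.8 (3.73 to 994), and the embryo had 2 Bapx1 and 5 wildtype tags. Over the 8 genes with a NIH3T3 peak, the 16 peaks other than the one with the smallest p at each gene held 9 to 14 tags by the authors' count. The median NIH3T3 peak of the 10 genes held 11.5 tags and that of the whole list 13.

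**Figure D3:**
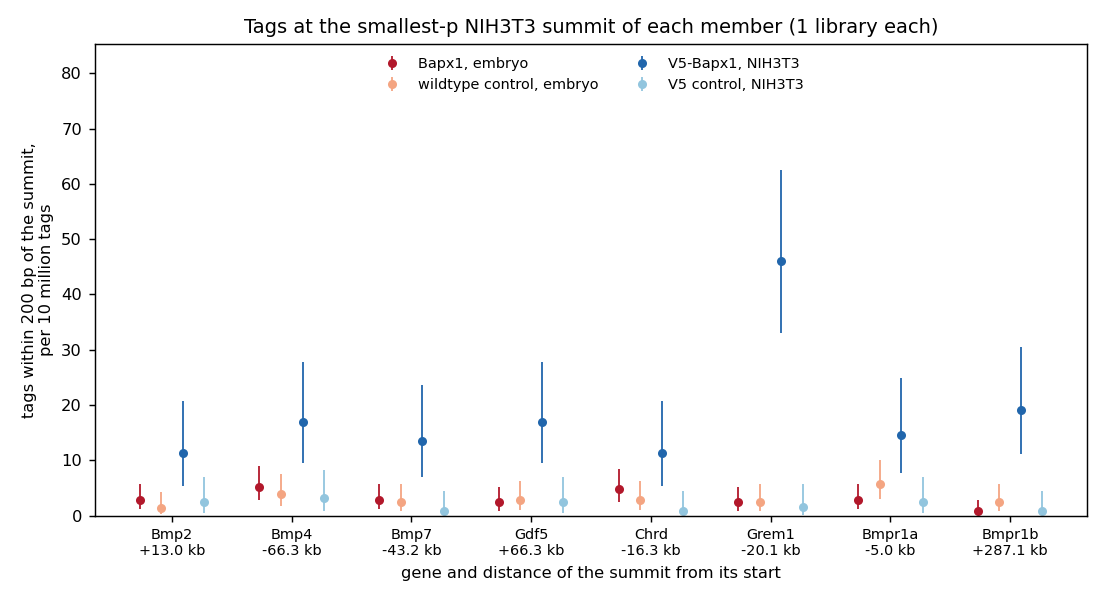
Tags within 200 bp of the NIH3T3 summit with the smallest p of each of the 8 genes that have one, per 10000000 tags of each library (y axis). Points are single libraries and bars exact Poisson 95% intervals for counting error. The Grem1 summit, with 41 V5-Bapx1 tags, stands above the other 7, which have 10 to 17, and the embryo Bapx1 and wildtype intervals overlap at all 8.

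The summits of one list were then examined with the libraries that had not been used to call it. At the 24 NIH3T3 summits the embryo Bapx1 library had 145 tags and the wildtype library 115, a scaled ratio of 1.05 (0.817 to 1.35). It was 1.12 (1.11 to 1.13) over the whole NIH3T3 list. No summit of the 24 reached a ratio of 2 with at least 10 Bapx1 tags, where 4.86% of the list did, and no single interval excluded 1. At the 6 embryo summits V5-Bapx1 had 27 tags and its control 19, a ratio of 1.99 (1.07 to 3.78), against 1.73 (1.68 to 1.78) over the whole embryo list. None of the 6 passed that call, against 8.03% of the list, but none held more than 7 V5-Bapx1 tags, so the minimum of 10 kept each from it. The ratio was above 1 at 3 of them, 3.26 at Chrd and at Grem1 and 4.20 at the nearer Bmpr1b summit, with intervals that included 1. The interval of the summed ratio of 1.99 came to include 1 with windows of 100 bp or 500 bp or with unshifted tags. The members' values thus lay near those of their lists in both directions.

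The motif was counted at the summits in the same way. It occurred within 50 bp of 16 of the 24 NIH3T3 summits, 66.7% (44.7 to 84.4%), against 64.4% of the whole list and 10.7% of places 500 bp to either side of the list's summits. Without the Bmp4 repeat 15 summits remained. Among the embryo summits 1 of 6 held it, 16.7% (0.421 to 64.1%), against 31.3% of the list and 10.5% of its flanks. A match within this distance is a description of the letters present.

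At the transcript starts themselves, no gene was called in either cell type. A call needed a scaled ratio of at least 2 within 500 bp of the start that most transcripts share, with at least 10 ChIP tags, and 5.66% of all genes passed it in the embryo and 17.9% in NIH3T3 cells. In the embryo the ratios ran from 0.640 at Bmpr1a, with 43 Bapx1 and 56 wildtype tags, to 1.47 at Grem1, with 23 and 13 tags. The Bmpr1a interval, 0.420 to 0.969, lay below 1 and all others included it. A ratio lower than that of Bmpr1a was found at 13.8% of all genes. The median was 0.906 for the 10 genes and 1.03 for all genes. In NIH3T3 cells the median was 0.583 against 1.22 for all genes, with few tags behind each value. No start held more than 9 V5-Bapx1 tags, below the minimum of 10, so none could be called there. V5-Bapx1 had no tag at the starts of Bmp2 and Bmpr1b, where the control had 7 at each, and the upper limit of both ratios was 0.971. Over their whole windows the NIH3T3 ratios were 0.846 (0.769 to 0.930) at Bmp2 and 1.01 (0.954 to 1.07) at Bmpr1b. Gdf6 had 1 V5-Bapx1 tag against 8. Bmpr1a had the highest NIH3T3 ratio, 2.80 (0.750 to 12.7), from 8 tags against 4. At its most upstream start Bmpr1b had 41 Bapx1 and 21 wildtype tags in the embryo, a ratio of 1.63 (0.939 to 2.90). In NIH3T3 cells that start had 3 V5-Bapx1 and 8 control tags, so the lack of V5-Bapx1 tags at Bmpr1b held only for the start used above.

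**Figure D4:**
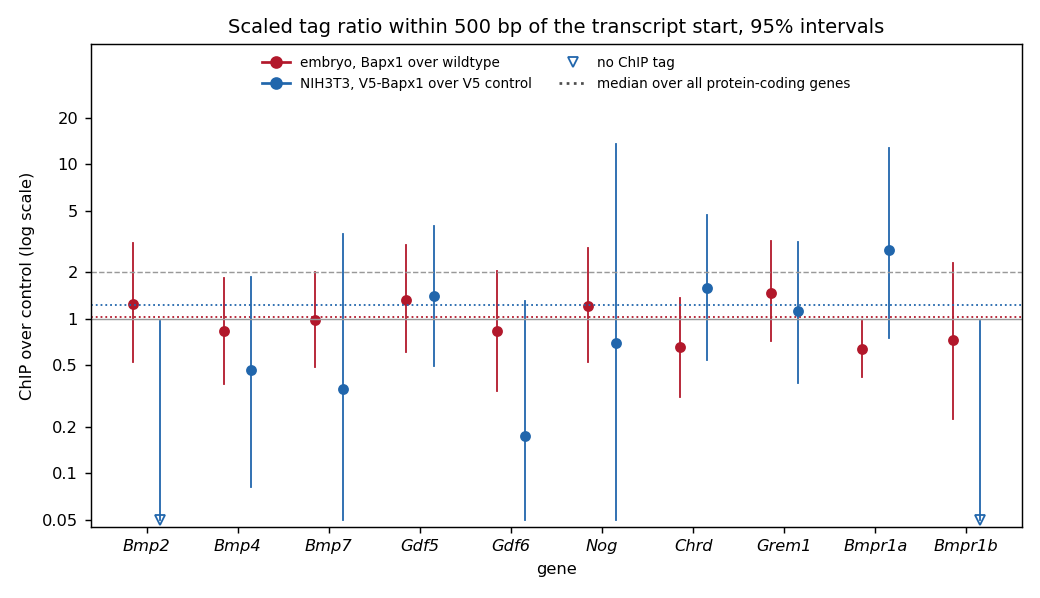
Scaled ratio of ChIP to control tags within 500 bp of the transcript start of each gene (y axis, log scale), in the embryo (red) and in NIH3T3 cells (blue). Points are ratios of 1 library to 1 control, bars exact binomial 95% intervals cut at the lower edge of the plot, open triangles mark starts without a ChIP tag, dotted lines the medians over all genes and the dashed line the ratio of 2. Bmpr1a is the only start with a ratio above 2, in NIH3T3 cells, and it had 8 tags there.

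The Sox9 peaks, placed by the measured displacement, lay at Bmp7 (2), Gdf5 (1), Nog (2), Chrd (1), Bmpr1a (1) and Bmpr1b (8). The sites named in this paragraph and the next were chosen after their values were seen. By the authors' FDR 1 of the 15 passed 5%, where 18% of the whole Sox9 list did. It was a peak in an intron of Bmpr1b 21.0 kb downstream of the most upstream start, with 29 Sox9 tags and 3 IgG tags within 200 bp of its summit. Next came one 53.5 kb upstream of Bmpr1b, with 28 and 2 tags. All 3 lists had a peak within 5 kb of this summit, as they also did at the Sox9 summit of Gdf5. The share of all Sox9 summits with both other lists in reach was not counted. The Gdf5 Sox9 peak had an FDR of 100%. At its summit the embryo Bapx1 library had 5 tags and the wildtype library 7, and V5-Bapx1 and its control had 0 and 2. At Bmpr1b the Sox9 summit lay 321 bp from a NIH3T3 summit and 1.81 kb from the nearer embryo Bapx1 summit. This NIH3T3 summit had 9 V5-Bapx1 and 4 control tags, a ratio of 3.15 (0.879 to 14.0). At the Sox9 summit itself the embryo Bapx1 library had 13 tags and the wildtype library 3, a ratio of 3.61 (0.992 to 19.7).

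The Sox9 peak of Chrd was 15.3 kb upstream, 74 bp from a start of Clcn2 and in an exon of Polr2h. It ranked 3196 of 3722 by p, with an FDR of 100%. All 3 ChIP libraries were above their controls there, with 16 Sox9 tags against 4 for IgG, 16 embryo Bapx1 tags against 4 for wildtype and 12 V5-Bapx1 tags against 0. The share of all Sox9 summits with all 3 above their controls was not counted. The start belongs to other genes than Chrd. At Bmp7 the Sox9 peaks lay 6.33 kb downstream in an intron and 18.3 kb upstream, and the latter had 21 Sox9 tags against 1. Those of Nog lay 56.3 kb and 70.0 kb upstream, on the other side of the gene from the embryo Bapx1 peak.

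Over the 15 Sox9 summits the embryo Bapx1 library had 139 tags and the wildtype library 67, a ratio of 1.73 (1.28 to 2.35). Over the 3456 Sox9 summits that could be placed in the genome it was 1.61 (1.58 to 1.64). Within 100 bp of the summits the ratio was 2.60 (1.65 to 4.21) at these genes and 1.71 (1.67 to 1.75) over the list, and within 500 bp it was 1.29 (1.05 to 1.59) and 1.37 (1.36 to 1.39). By single sites, 6 of 15 reached a ratio of 2 with 10 tags against 24.3% of the list. Bmpr1b gave 5 of these 6, and without it the ratio was 1.54 (0.992 to 2.43). V5-Bapx1 in NIH3T3 cells had 31 tags and its control 32 at the same summits, a ratio of 1.36 (0.7999 to 2.29), with 1 site called against 2.14%. In the other direction, Sox9 had 35 tags and IgG 22 at the 6 embryo Bapx1 summits, a ratio of 1.66 (0.946 to 2.97), and at the 24 NIH3T3 summits 85 and 65, a ratio of 1.36 (0.976 to 1.91). Both intervals included 1.

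**Figure D5:**
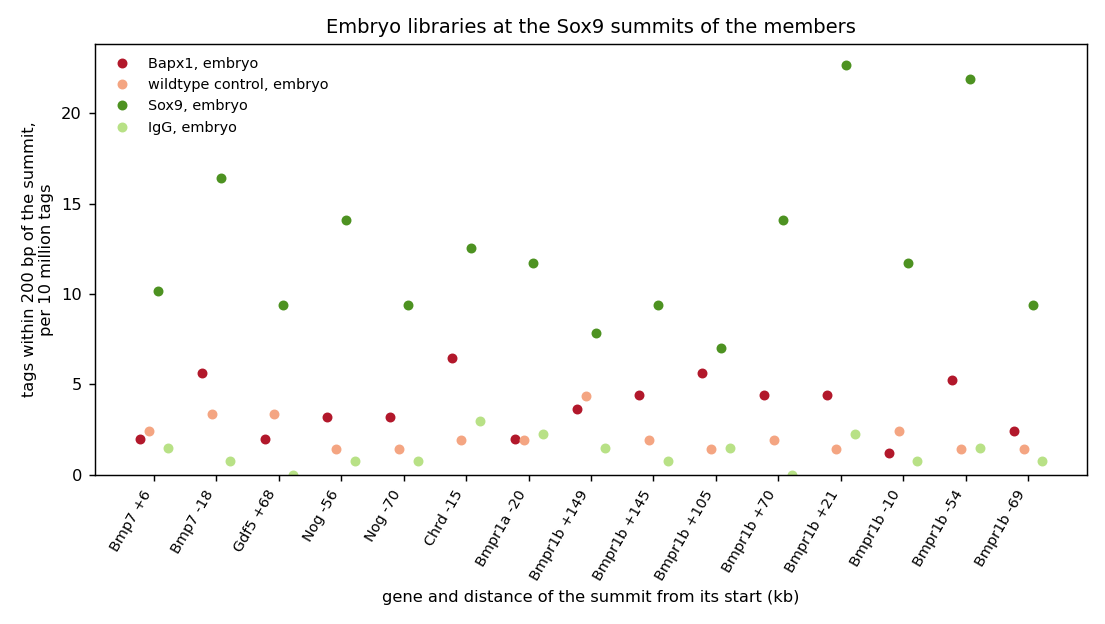
Tags within 200 bp of the 15 Sox9 summits, placed by the measured displacement, per 10000000 tags of each embryo library (y axis). Points are single libraries, and the x axis names the gene and the distance in kb from its most upstream start. Sox9 points, from 9 to 29 tags, lie above IgG by construction, and the Bapx1 points exceed the wildtype points at 11 of the 15 summits.

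How near the peaks of different lists stood to each other was counted within 5 kb, from small numbers and without a test. A Sox9 summit was in reach of 3 of the 6 embryo Bapx1 summits against 11.4% of the list, at Gdf5 (4.46 kb) and at both sites of Bmpr1b (1.81 kb and 4.48 kb). A NIH3T3 summit was within 5 kb of 2 of the 6, against 16.4%. Of the 24 NIH3T3 summits 2 had an embryo summit in reach against 2.27% and 4 had a Sox9 summit against 2.05%. Of the 15 Sox9 summits 3 had an embryo Bapx1 summit against 9.58% and 3 had a NIH3T3 summit against 12.7%. The window of Bmpr1b and the Uqcc intron near Gdf5 gave most of these pairs.

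The other genes of the pathway, 51 in 4 lists, were read in the same windows. An embryo Bapx1 peak lay in the window of 6 of 16 further ligands, 6 of 14 antagonists, 4 of 9 receptors and 6 of 12 Smads, Smad regulators and Id target genes, 22 of 51 in all, where 25.1% of all genes had one. NIH3T3 peaks lay at 12, 11, 9 and 11 of them, 43 in all, against 81% of all genes, and Sox9 peaks at 27 of the 49 with a clear displacement, against 29.9%. At the starts 3 genes were called in the embryo, Cer1, Acvr1 and Smad6, where 5.66% of all genes were called. None of them had an embryo peak in its window, and the nearest lay 192913, 195852 and 347218 bp from their starts. In NIH3T3 cells 4 were called, Rgmb, Smad5, Smad6 and Id3, where 17.9% of all genes were. Of these, Smad5 had no NIH3T3 peak in its window, and the nearest lay 103299 bp from its start. The genes called at their starts are named after their values were seen.

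Embryo peaks within 10 kb of a start, which none of the 10 genes and 3.7% of all genes had, occurred at Sostdc1, Smad1 and Smad9. Sostdc1, a secreted BMP and Wnt antagonist, had one 3105 bp downstream of its start, with 19 Bapx1 and 6 wildtype tags within 200 bp. Smad1, which transmits BMP signals, had one 7830 bp downstream with 21 and 4 tags, the only one of these with the motif. Smad9, of the same class, had one 315 bp upstream of its start with 22 and 5 tags. V5-Bapx1 and its control had 2 and 7 tags at the first, 2 and 5 at the second and 5 and 4 at the third. The most NIH3T3 peaks were in the window of Gdf11, with 10, followed by Gdf3, Hfe2 and Smurf2, tied with 8 each.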

How the data were processed

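ChIP-seq libraries of Bapx1, Sox9 and their controls were taken from the deposited tag positions and MACS peak lists. Per the paper's methods, the authors mapped reads to mm9 with the Illumina Genome Analyzer Pipeline, kept uniquely mapped reads, and called peaks with MACS 1.4.0 beta against the control at a p cutoff of 1e-05. The submitters' processing notes name mm9 for all samples. The deposited lists hold, for each peak, its tag count in the ChIP library, a score that is −log10 of p times 10, a fold ratio to the background nearby, and an FDR in percent, which MACS derives by exchanging the ChIP and the control. The deposited tags span 35 bp and carry no normalization.

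The members and the pathway lists were chosen with earlier results of these data known. Windows came from the GENCODE annotation of NCBIM37 (mm9). Here 1 tag per position and strand was kept, tags were shifted by 100 bp towards the fragment centre, counted within 200 bp of summits or 500 bp of transcript starts, and scaled to each library's total over chromosomes 1 to 19, X and Y. Ratios and shares have exact binomial (Clopper-Pearson) 95% intervals. Reads lacked molecular identifiers, so tags need not be independent molecules.

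The Sox9 and IgG positions were displaced against mm9, and the assembly behind them is not given in the sources used here. Tags in bins of 50 bp, at most 3 per bin, were correlated with the Bapx1 and wildtype libraries over 500 kb around each gene, at every shift up to 4000 kb. A displacement was clear if its correlation exceeded the best one elsewhere 1.5-fold. For all genes the displacement of the 500-kb tile holding the gene was used, and of 4713 clear tiles 94.4% were displaced by over 1 kb.

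Named were all 10 genes with every embryo peak and the NIH3T3 peak with the smallest p, and, among other pathway genes, those with an embryo peak within 10 kb of the start and the 3 with the most NIH3T3 peaks, which a tie made 4. The pathway genes called at their starts were named after their values were seen. No test between conditions was made, since each condition had 1 library. The de novo motif search was not repeated, and no motif was sought at Sox9 positions. The search for displacements, raised ratios and motifs was tried on simulated data with planted answers. The bases around the planted motifs could not form a match, and no limit was set on false ratio calls. False matches and false calls were therefore not tested. The displacement trial used 1 planted shift and planted shared signal, so it does not show how the search performs on these libraries. Python with numpy, scipy and pandas was used.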

Additional observations from a re-analysis of the deposited data

How the results depend on the processing

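Counts of peaks followed the width of the window and the peak threshold. The NIH3T3 ratio at the embryo summits was 1.22 (0.817 to 1.83) within 500 bp, against 1.99 within 200 bp. With flanks of 50 kb, 1 embryo Bapx1 peak at 1 gene (Nog) and 15 NIH3T3 peaks were left, and with flanks of 200 kb 42 NIH3T3 peaks were counted. At a p of at most 1e-10 no embryo peak (0) at 0 genes and 3 NIH3T3 peaks at 3 genes (Bmp4, Grem1, Bmpr1b) were left. When a peak counted only if its nearest transcript start was one of the 10 genes, 3 embryo peaks at 2 genes and 10 NIH3T3 peaks at 3 genes were left. The shares of all genes under these rules were not counted. For the transcript starts in NIH3T3 cells, windows of 1000 bp and the call without a minimum of tags each gave 1 gene, Bmpr1a. The motif was found at 3 embryo summits within 100 bp and at 0 within 25 bp, and AAGTGG or GAGTGG occurred at 2 embryo and 8 NIH3T3 summits. Sox9 peaks numbered 9 at the deposited coordinates, which shows what the displacement does to a count, and 1 at an FDR of at most 5%. The embryo ratio at the Sox9 summits, an analysis added after seeing the data like its alternatives, was 2.60 within 100 bp. The other alternatives, 40 of 61, stayed within 1.5 times the count or within the interval of the ratio, and none turned a ratio to the other side of 1 beyond its interval. Some of the 40 could not have moved. The embryo libraries held no repeated tags, so using all tags left their values as they were. The minimum of 10 tags kept every NIH3T3 start uncalled within 250 bp or at a ratio of 1.5. All 24 NIH3T3 peaks already had an FDR below 5%. Among the alternatives chosen after seeing the data, leaving out Bmpr1b gave 16 NIH3T3 peaks. No paired analysis was possible because each condition had 1 library. The displacement was clear for 8 of 10 genes in windows of 200 kb and for 6 of 10 from IgG and wildtype alone, each within 100 bp of the value used. Grem1 passed narrowly, with a correlation of 0.108 against 0.0716 for the best shift elsewhere. The 200 kb to the right of its middle gave 2424300 bp, which was not clear, and the 200 kb to the left gave -39250 bp, which was. The lack of a Sox9 peak at Grem1 rests on this placement. The few tags per site limit all single ratios.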
